A study of Mus musculus with 4 samples.

Results

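The 10 genes described here encode structural proteins of the simple epithelium that lines the intestine, namely the keratins *Krt8*, *Krt18*, *Krt19* and *Krt20*, the claudins *Cldn3*, *Cldn7* and *Cldn15*, and the adhesion molecules *Epcam*, *Cdh1* and *Cdh17*. They were chosen by name, and every probe that the array's annotation assigns to one of them was taken, which gave 11 of 41174 probes. They are 10 of 27029 genes named on the array, and 9 of them could be tested, among 18250 tested genes. The samples were RNA of CD8αβ+ IELs, the T cells that lie between the epithelial cells of the small intestine, and of CD8αβ+ SPLs, the corresponding T cells of the spleen. Both groups came from wild-type male mice aged 8 to 12 weeks. The wild-type mice were on a C57BL/6 background, and the cells of several mice were pooled in a sample. The cells were taken by a sort for CD45, CD3, CD8α, CD8β and TCRβ. Epithelial cells lack CD45, but whether any epithelial cells or their RNA were carried along was not tested. Each group had 2 samples, and each sample was measured on its own 1-color Agilent array, and each of the 2 slides held 1 array of either group. Slide 1 carried IEL replicate 1 beside SPL replicate 2, and the remaining pair was on slide 2. With 2 arrays against 2, an exact two-sided permutation test cannot go below p = 0.333.

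Keratins form the intermediate filaments of epithelial cells from obligate pairs of a type I and a type II chain, and *Krt8* with *Krt18* is the pair that marks simple epithelium. Claudins close or open the space between neighboring cells at the tight junction, whereas E-cadherin, the product of *Cdh1*, joins the cells at the adherens junction. IELs touch the epithelium through receptors that bind E-cadherin. Levels below are log2 intensities relative to the 75th percentile of all probes of the same array, so that a level of 0 means as bright as that percentile. A level compares arrays for the same probe and does not compare probes with each other.

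The labelled cell type had its markers on all 4 arrays, but the arrays of a group did not resemble each other most. IEL replicate 2 correlated across probes more closely with SPL replicate 1 (Pearson's r = 0.992) than with IEL replicate 1 (r = 0.946). The summed level of 12 CD8 T cell markers was between 790 and 887 times the 75th percentile on the 4 arrays. The sum over 8 tested B cell markers was 3.61 on IEL replicate 1 and 21.3 on IEL replicate 2, against 27.6 and 20.9 on the SPL arrays. The sum over 6 red cell markers was 1.16 on IEL replicate 1 and 75.02 on IEL replicate 2, against 99.1 and 116 on the SPL arrays. IEL replicate 2, although labelled as IELs, thus lay with the spleen arrays in these markers, and the results below are also given per slide and without it. Between 63.6% and 69.6% of probes were well above background on the 4 arrays, and no spot was saturated (0 spots).

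The probes show what the signal of each gene rests on, since an array reads only 60 bases of a transcript. *Krt8* has 2 probes, *Cdh1* has 1 probe printed in 10 spots, and each of the other genes has 1 probe in 1 spot. Among the 55 pairs of member probes the longest shared run was 11 bases, between a *Krt8* and the *Krt18* probe, and the next longest was 8 bases. The run is in capitals below and occurs in 5 of the 41174 probes of the array. The probes of *Krt19*, *Cldn7* and *Epcam* are shown for comparison, as the sequences that gave the signals of another keratin, a claudin and the epithelial adhesion molecule.
Krt8 (A_51_P242399): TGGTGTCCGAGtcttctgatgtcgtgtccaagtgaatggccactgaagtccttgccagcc
Krt18 (A_51_P324814): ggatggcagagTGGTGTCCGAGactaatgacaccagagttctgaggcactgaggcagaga
Krt19 (A_51_P356642): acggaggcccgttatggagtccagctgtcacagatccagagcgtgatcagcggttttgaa
Cldn7 (A_51_P165185): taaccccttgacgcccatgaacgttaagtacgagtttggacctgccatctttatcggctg
Epcam (A_52_P447944): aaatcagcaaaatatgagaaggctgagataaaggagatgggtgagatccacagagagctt

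On the mm9 coordinates of the array's annotation, the 2 *Krt8* probes lie within chr15:101827214-101827405 on the minus strand and the *Krt18* probe at chr15:101862341-101862400 on the plus strand. In the RefSeq annotation of GRCm38.p6 the 2 keratin genes are 23873 bases apart, with 2 long non-coding RNA genes and no protein-coding gene between them. *Krt19* (chr11:100002392-100002451) and *Krt20* (chr11:99289776-99289835) lie in the type I keratin cluster. *Cldn7* was read at chr11:69780780-69781089 and *Epcam* at chr17:88048972-88049800, spans wider than the 60 bases of a probe, so both probes cross a gap between stretches of the transcript. *Cldn3* (chr5:135463179-135463238) and *Cldn15* (chr5:137451465-137451524) share a chromosome. The cadherin probes lie at chr8:109193812-109193871 for *Cdh1* and chr4:11744272-11744331 for *Cdh17*.

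All 10 genes had higher levels on both IEL arrays than on both SPL arrays, after scaling of the scanner software's background-subtracted intensities to the 75th percentile. Before scaling this held for 8 of the 10, since IEL replicate 2 was dimmer than SPL replicate 1 for *Cldn15* and dimmer than SPL replicate 2 for *Cdh17*. That order of the groups was found for 35.4% of all genes when no filter on dim probes was set. Among the 9 tested members it held for 9, against 24.6% of all tested genes, and for 0 in the opposite direction, against 24.7%. *Krt20* passed the filter only through the IEL arrays, whereas the other 8 tested members were well above background on all 4 arrays. The median fitted difference between IELs and SPLs was 3.51 on the log2 scale over the 9 and 3.24 over those 8, against -0.003 over all tested genes. No member passed the threshold, with 0 of 9 called in limma at an adjusted p under 0.05 (background 0% of tested genes), and every member had an adjusted p of 0.634. At an unadjusted p under 0.05 in limma, 7 of the 9 were higher in IELs, against 4.89% of all tested genes, and 0 were lower, against 0.975%. The exceptions were *Cldn15* and *Epcam*. Replicates of a group lay far apart, since IEL replicate 1 stood at least 2-fold above IEL replicate 2 for 8 of 9 members, against 8.8% of all tested genes. Another background correction, normexp, lowered the members' median to -0.040, with 5 of the 9 differences below 0, and the median of all probes to -0.38. When normexp was fitted without spots far below background, the members' median was 1.91 and all 9 differences were above 0. The median of all probes was then 0.15.

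**Figure D1:**
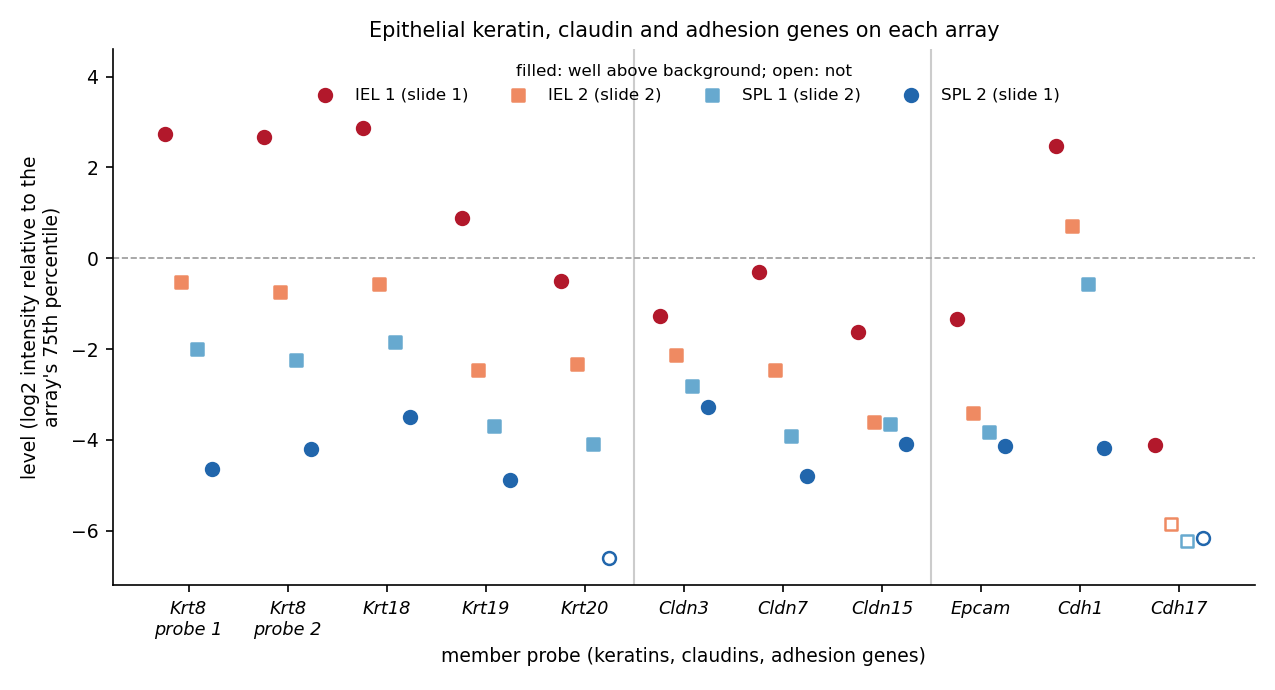
Level (log2 intensity relative to the array's 75th percentile, y axis) of each of the 11 member probes (x axis) on the 4 arrays, 1 point per array, with open symbols for values not well above background. IEL replicate 1 is the highest array for every probe, and the 2 arrays of slide 2 lie between the 2 arrays of slide 1 for all but *Cdh17*. The values rest on the scanner software's background correction, and with normexp 5 of the 9 tested genes had a negative group difference. All 9 were positive when normexp was fitted without spots far below background.

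*Krt8* encodes the type II keratin of simple epithelium. Its brighter probe had intensities of 2071 and 305 units on IEL replicates 1 and 2, and of 121 and 24.3 units on SPL replicates 1 and 2. The values did not overlap between groups, and the 2 IEL arrays were 3.24 apart on the log2 scale. The fitted log2 difference was 4.42 ± 1.44 (SE, n = 2 per group), or 7.37 within slide 1 and 1.48 within slide 2. The second *Krt8* probe gave 1969, 259, 101 and 33.1 units in the same order, with a fitted difference of 4.17 ± 1.35. Both probes were read on the same arrays, so these errors measure the spread between arrays and not how far the 2 probes agree.

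*Krt18*, the type I partner of *Krt8*, had levels of 2.86 and -0.56 on the IEL arrays and of -1.84 and -3.50 on the SPL arrays. Both SPL arrays lay below both IEL arrays, and the fitted log2 difference was 3.82 ± 1.31 (SE, n = 2 per group), with 6.36 on slide 1 and 1.28 on slide 2. As fractions of its intensity relative to the 75th percentile on IEL replicate 1, *Krt18* was at 9.32% on IEL replicate 2, 3.83% on SPL replicate 1 and 1.22% on SPL replicate 2. The brighter *Krt8* probe was at 10.6%, 3.79% and 0.605%. The 2 chains of the pair thus fell off from array to array by similar factors, apart from SPL replicate 2, where the *Krt8* probe was dimmer. This was not particular to the pair, since *Krt19* was at 9.84%, 4.17% and 1.83% in the same order.

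*Krt19*, a small type I keratin found in many simple epithelia, had levels of 0.90 and -2.45 on the IEL arrays and of -3.69 and -4.88 on the SPL arrays. Its fitted log2 difference was 3.51 ± 1.22 (SE, n = 2 per group), with 5.78 on slide 1 and 1.24 on slide 2. *Krt20*, the type I keratin of differentiated cells of the intestinal lining, had levels of -0.50 and -2.32 on the IEL arrays and of -4.10 and -6.59 on the SPL arrays. The last value, from an intensity of 6.27 units, was not well above background, so 1 of the 2 SPL arrays measured this keratin. The fitted log2 difference of *Krt20* was 3.93 ± 1.07 (SE, n = 2 per group), with 1.77 on slide 2. On slide 1 its signals differed by 6.10, or by at least 5.85 when SPL replicate 2 is set to the lowest level that was well above background there. Among the 9 tested members, *Krt20* had the largest difference on slide 2, the slide that holds IEL replicate 2. All 4 keratins had fitted differences above 0, with *Krt20* measured on 1 of the SPL arrays, although *Krt20* turned to -0.040 with normexp correction.

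The 3 claudins had fitted differences between 1.26 and 2.98 over the 4 arrays, against 3.51 to 4.42 for the keratins. This order was not tested, and on slide 2 *Cldn7* (1.45) was above *Krt18* (1.28) and *Krt19* (1.24). *Cldn3*, a claudin that seals the tight junction, had levels of -1.26 and -2.14 on the IEL arrays and of -2.81 and -3.27 on the SPL arrays. Its intensities of 130, 98.7, 68.2 and 62.7 units were well above background on all arrays, so that the spleen arrays carried a measurable signal of this probe. The fitted log2 difference was 1.34 ± 0.40 (SE, n = 2 per group), with 2.01 on slide 1 and 0.67 on slide 2. *Cldn7*, which is found along the lateral membrane of epithelial cells and binds EpCAM, had levels of -0.29 and -2.46 on the IEL arrays and of -3.91 and -4.80 on the SPL arrays. Its fitted log2 difference of 2.98 ± 0.82 (SE, n = 2 per group) was the largest of the claudins, with 4.51 on slide 1 and 1.45 on slide 2.

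*Cldn15*, which forms channels for sodium between the cells of the small intestine, had levels of -1.63 and -3.60 on the IEL arrays and of -3.65 and -4.10 on the SPL arrays. IEL replicate 2 and SPL replicate 1 were indistinguishable for this gene, with intensities of 36.0 and 38.2 units before scaling and a difference of 0.05 on the log2 scale after it. The fitted log2 difference was 1.26 ± 0.72 (SE, n = 2 per group), and the separation between groups rested on IEL replicate 1. Under normexp correction the fitted differences of *Cldn3*, *Cldn7* and *Cldn15* were -0.23, -0.078 and -0.61, so no direction held for the claudins under every correction. They were 0.95, 1.73 and 0.83 when normexp was fitted without spots far below background.

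*Epcam* encodes the epithelial cell adhesion molecule, a surface protein by which epithelial cells are often recognized. Its levels were -1.34 and -3.41 on the IEL arrays and -3.82 and -4.13 on the SPL arrays. The fitted log2 difference was 1.60 ± 0.74 (SE, n = 2 per group), with 2.79 on slide 1 and 0.42 on slide 2, and it was -0.49 with normexp correction. In intensity units, *Epcam* was at 123 on IEL replicate 1 and between 33.9 and 41.0 on the other 3 arrays, so 1 array stood apart for this gene as it did for *Cldn15*.

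*Cdh1* had the widest gap between the spleen arrays among the members. Its levels were 2.47 and 0.70 on the IEL arrays, -0.57 on SPL replicate 1 and -4.18 on SPL replicate 2. In units of intensity the 4 arrays gave 1732, 707, 322 and 33.3, and the 2 SPL arrays thus differed by 3.61 on the log2 scale, more than the 2 IEL arrays (1.77). On each array 9 of the 10 spots of the *Cdh1* probe were kept, and on SPL replicate 2 they ranged from 31.0 to 36.6 units, whereas on SPL replicate 1 they ranged from 305 to 334 units. The SD of the log2 intensity over the spots was between 0.029 and 0.085, so the gap between the SPL arrays was much larger than the spread of spots within an array. The fitted difference between groups was 3.96 ± 1.38 (SE, n = 2 per group), with 6.66 on slide 1 and 1.27 on slide 2, and normexp correction left it positive at 2.00. *Cdh17*, the cadherin of the intestinal lining, was well above background on IEL replicate 1 alone (18.0 units) and not on the other 3 arrays (6.45 to 8.52 units). It was not tested. The group means of its levels differed by 2.30-fold, with 4.10-fold on slide 1 and 1.29-fold on slide 2. Since IEL replicate 2 was itself not well above background, the fold of the means is not a lower bound.

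The arrays could be ordered for every tested member. IEL replicate 1 was above IEL replicate 2, which was above SPL replicate 1, which was above SPL replicate 2, for 9 of 9 tested members, against 13.2% of all tested genes. With no filter on dim probes the order held for 9 of 10 members, against 23.9% of all genes, and *Cdh17*, which was dim on 3 arrays, did not have it. SPL replicate 1 was at least 2-fold above SPL replicate 2 for 5 of the 9, against 3.11% of all tested genes, and these were the 4 keratins and *Cdh1*. On slide 1 all 9 were at least 2-fold higher on the IEL array, against 11.7% of all tested genes. On slide 2 there were 6 of 9, against 3% of all tested genes, and *Cldn3*, *Cldn15* and *Epcam* did not reach this fold. The same 6 were at least 2-fold higher on both slides, against 2.13% of all tested genes. The neighbors in this order were not tested against each other, since each is 1 array.

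**Figure D2:**
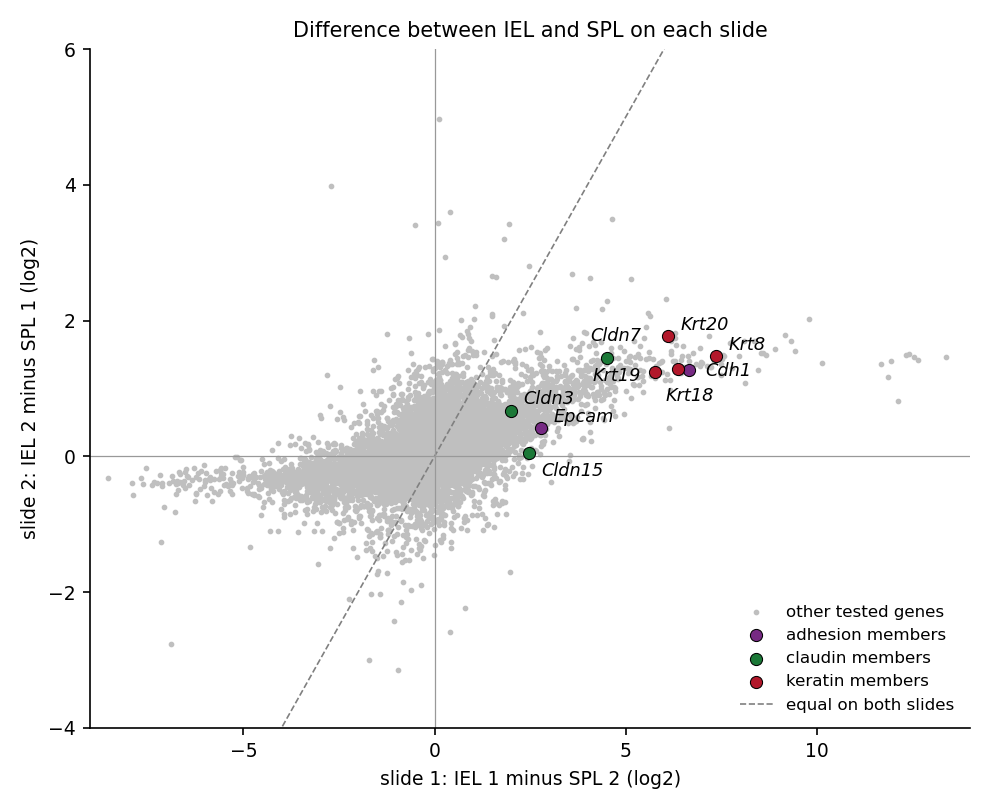
Difference between the IEL and the SPL array on slide 1 (x axis, log2) against the difference on slide 2 (y axis, log2), with 1 point per tested gene, members in color and the dashed line for equal differences. The members lie to the right, with 2.01 to 7.37 on slide 1 and 0.05 to 1.77 on slide 2, in values without normexp correction, under which 5 of the 9 group differences were negative. With normexp fitted without spots far below background, all 9 were positive.

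How far IEL replicate 2 stood between SPL replicate 2 and IEL replicate 1 was computed on the linear scale, as a percentage of the way from the spleen array to the IEL array. The position of IEL replicate 2 was 8.16% for *Krt19*, 8.20% for *Krt18* and 10.01% for *Krt8*, so 3 keratins shared nearly the same value. It was 27.1% for *Krt20*, 28.6% for *Cdh1* and 39.4% for *Cldn3*, the highest of the members. The other 3 members were at 18.7% (*Cldn7*), 11.02% (*Epcam*) and 9.16% (*Cldn15*). The median position was 11.02% over the 9 members, against 25.7% over the 836 tested genes that were at least 4-fold higher on IEL replicate 1 than on SPL replicate 2. SPL replicate 1 stood at a median of 4.04% for the members and of 7.96% for those 836 genes. *Cdh1* and *Cldn3* had the highest positions on that spleen array as well, at 11.2% and 12.3%.

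Without IEL replicate 2, 8 of the 9 tested members passed the limma threshold as higher in IELs, against 8.28% of all tested genes, with 1 IEL array assumed to vary as the SPL arrays did. None was lower (0 of 9), against 11.6%. *Krt20*, among those that passed, had passed the filter only through the IEL arrays, and of the 8 members well above background on all 4 arrays 7 passed. The fitted log2 differences were then 6.04 ± 1.08 (SE) for *Krt8*, 5.53 ± 0.70 for *Krt18*, 5.18 ± 0.53 for *Krt19* and 4.85 ± 1.02 for *Krt20*. The claudins gave 1.78 ± 0.30 for *Cldn3*, 4.06 ± 0.43 for *Cldn7* and 2.24 ± 0.30 for *Cldn15*, and *Epcam* gave 2.64 ± 0.27. The adjusted p-values of these 8 lay between 0.00859 and 0.0378 in limma. *Cdh1* had a large difference, 4.85 ± 1.46, but an adjusted p of 0.0841, and it was the member whose SPL arrays differed most. Leaving out any other array left 0 members past the threshold.

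The receptors by which lymphocytes bind E-cadherin were on the arrays too. *Itgae*, the αE chain (CD103) of the integrin that anchors IELs to the epithelium, had levels of 6.87 and 5.27 on the IEL arrays and of 4.16 and 3.16 on the SPL arrays. Its fitted log2 difference was 2.41 ± 0.68 (SE, n = 2 per group), with 3.71 on slide 1, 1.11 on slide 2 and 0 of 3 receptor genes past the threshold in limma. Without IEL replicate 2 *Itgae* passed it, with 3.20 ± 0.47 and an adjusted p of 0.0167. *Itgb7*, the β7 chain that pairs with αE, differed by 0.29 ± 0.24. *Klrg1*, an inhibitory receptor for E-cadherin, differed by 0.54 ± 0.38. *Itgae* had the same order of arrays as *Cdh1*, an order that all 9 tested members and 13.2% of all tested genes had. Its position on IEL replicate 2 was 27.6%, beside 28.6% for *Cdh1* and 27.1% for *Krt20*. The median was 25.7% over the 836 tested genes at least 4-fold higher on slide 1.

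Other genes of the same structures had smaller median differences. Of 21 other tight junction genes 12 could be tested, with a median log2 difference of 0.32 and 0 past the threshold in either direction. The highest was *Cldn12* (1.98 ± 0.62), a claudin of several tissues, and the lowest *Pard6b* (-0.55 ± 0.27), a cell polarity gene. Of 16 adherens junction and desmosome genes on the array 13 were tested, with a median of 0.45 and 0 past the threshold. The highest was *Dsp* (3.21 ± 1.01), desmoplakin, which ties desmosomes to keratin filaments, and the lowest *Pvrl1* (-0.30 ± 0.23), a nectin. *Dsp* had levels of -0.67 and -1.48 on the IEL arrays and of -2.88 and -5.69 on the SPL arrays, and at 55.7% it stood further toward IEL replicate 1 on IEL replicate 2 than any member did.

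Of 4 other keratins that were listed under simple epithelium, 3 were tested, with a median log2 difference of -0.80 and 0 past the threshold. *Krt7*, the type II keratin of ducts and glands, had levels of -0.38 and -2.88 on the IEL arrays and of -4.24 and -4.87 on the SPL arrays, with a fitted log2 difference of 2.93 ± 0.90 (SE, n = 2 per group). *Krt222* was the lowest, at -1.29 ± 0.72, and *Krt80*, at -0.80 ± 0.44, gave the median of the 3. *Krt80* was not well above background on either IEL array, and *Krt222* was not on IEL replicate 1. Both passed the filter only through the SPL arrays, so the median of this list rests on a dim probe. Of 18 epithelial transcription and splicing factors 12 were tested, with a median log2 difference of 0.48 and 0 past the threshold. The lowest was *Klf4* (-0.12 ± 0.39), a zinc finger transcription factor. Over these 4 lists together, 33 of 40 tested genes had a positive difference, against 49.7% of all tested genes. A difference of at least 1 on the log2 scale was found for 10 of the 40, against 6.81% of all tested genes, and on slide 2 it was found for 4 of the 40, against 3%.

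Several genes of these lists were detected on IEL replicate 1 but were too dim elsewhere to be tested. Of the 19 genes of the 4 lists that had no tested probe, 10 were well above background on IEL replicate 1, 0 on IEL replicate 2, 1 on SPL replicate 1 and 0 on SPL replicate 2. The 10 were *Cldn1*, *Cldn2*, *Cldn4*, *Cldn23*, *Krt23*, *Pkp2*, *Cdx2*, *Elf3*, *Isx* and *Ovol1*, among them the intestinal transcription factors *Cdx2* and *Isx*. *Cdh17* had the same pattern among the members. The share of all untested genes detected on IEL replicate 1 alone was not computed. These counts therefore stand without a background. Keratins, claudins and cadherins of other epithelia or tissues served as a comparison, and 13 of 22 were tested. Their median log2 difference was 0.03, with 0 past the threshold, *Krt13* the highest (1.30 ± 0.60) and *Cdh16* the lowest (-1.36 ± 0.86). Without IEL replicate 2 the median log2 difference was 0.57 for the tight junction and 0.72 for the adherens junction and desmosome. It was 0.39 for the transcription and splicing factors, -1.27 for the other simple keratins and -0.37 for the genes of other tissues. *Krt7* was then at 4.17, *Krt13* at 2.11, *Krt222* at -2.29 and *Cdh16* at -2.58. Neither *Krt222* nor *Cdh16* was well above background on IEL replicate 1.

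**Figure D3:**
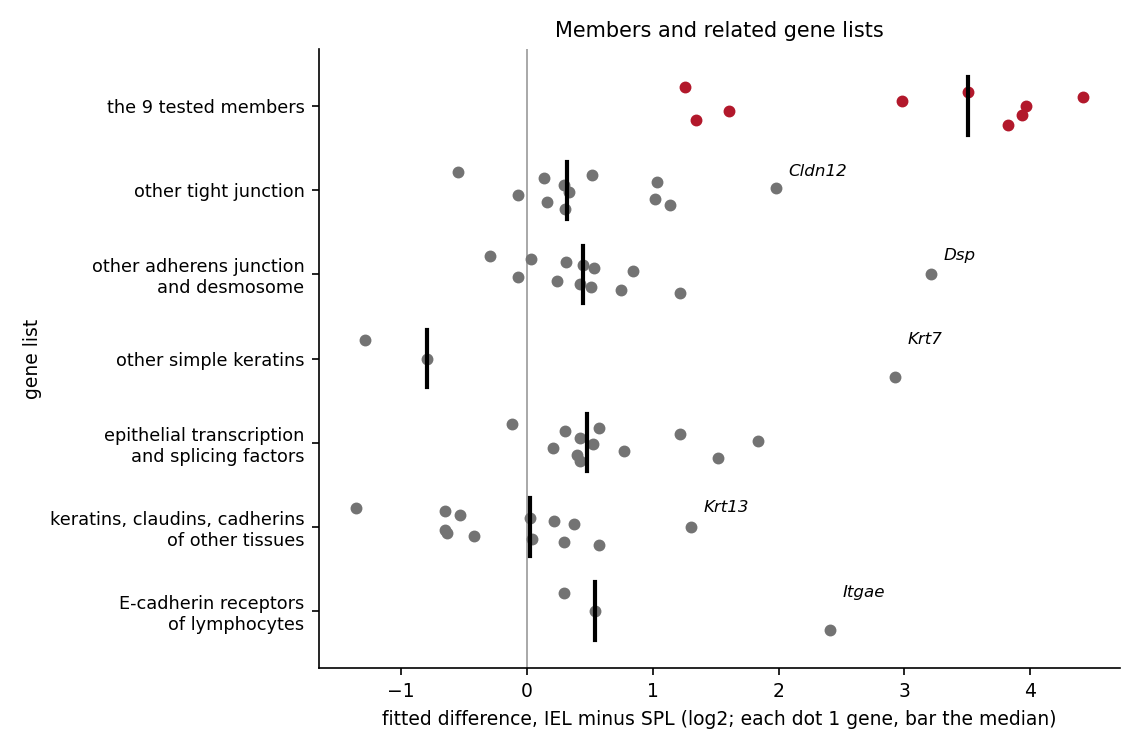
Fitted difference between IELs and SPLs (x axis, log2) for each tested gene of the members and of 6 related lists (y axis), with 1 dot per gene, a bar at each list's median and the highest gene named for 5 of the related lists. The members' median of 3.51 lies to the right of the medians of the related lists, which run from -0.80 to 0.54. The value of -0.80 is that of *Krt80*, which was not well above background on either IEL array. With normexp correction the members' median was -0.040, or 1.91 when normexp was fitted without spots far below background.

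Markers of several cell types moved with the members. The summed level of the keratin members was 16.5 and 1.76 on the IEL arrays and 0.667 and 0.173 on the SPL arrays. Over the 7 tested goblet cell markers, which cover the mucus-secreting cells, the sums were 39.0, 4.55, 1.64 and 0.312, and over 13 Paneth cell markers, the antimicrobial cells of the crypt, they were 1096, 33.6, 19.7 and 10.2. The 8 tested enteroendocrine markers summed to 5.78 and 1.24 on the IEL arrays and to 0.644 and 0.326 on the SPL arrays. The 13 tested enterocyte markers covered a narrower range, with 7.51 and 4.98 on the IEL arrays and 4.18 and 3.43 on the SPL arrays. All 7 goblet cell markers, 12 of 13 Paneth cell markers, 7 of 8 enteroendocrine markers and 9 of 13 enterocyte markers were higher on both IEL arrays than on both SPL arrays, against 24.6% of all tested genes. No list had a gene past the limma threshold (0 in each). Without IEL replicate 2 the median log2 differences were 5.77 for goblet cell, 9.51 for Paneth cell, 3.89 for enteroendocrine and 1.49 for enterocyte markers. They were -4.61 for B cell, -4.59 for red cell and -4.23 for myeloid markers. *Muc2*, *Defa21*, *Defa22*, *Itln1*, *Cck*, *Chga*, *Chgb*, *Gcg* and *Apoa1* were not well above background on SPL replicate 2. They passed the filter only through the IEL arrays. Several B cell and red cell markers, such as *Ms4a1* and *Alas2*, were not well above background on IEL replicate 1 and passed only through the SPL arrays.

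The position of IEL replicate 2 between the arrays of slide 1 differed among these lists. Among genes at least 4-fold higher on IEL replicate 1 than on SPL replicate 2, the median position was 1.75% for 13 Paneth cell markers, 11.8% for 5 enteroendocrine markers, 13.2% for 7 goblet cell markers and 47.0% for 5 enterocyte markers. The 4 keratin members had a median of 9.11%, and the 3 claudins one of 18.7%. Tuft cell markers had a median log2 difference of -0.18 over 4 tested genes, and B cell, myeloid and red cell markers had medians of -2.46, -1.99 and -2.48. In sorted cells measured in bulk, fewer cells of a type and less RNA per cell cannot be told apart, and the part of epithelial cells in the members' signal was not tested.

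**Figure D4:**
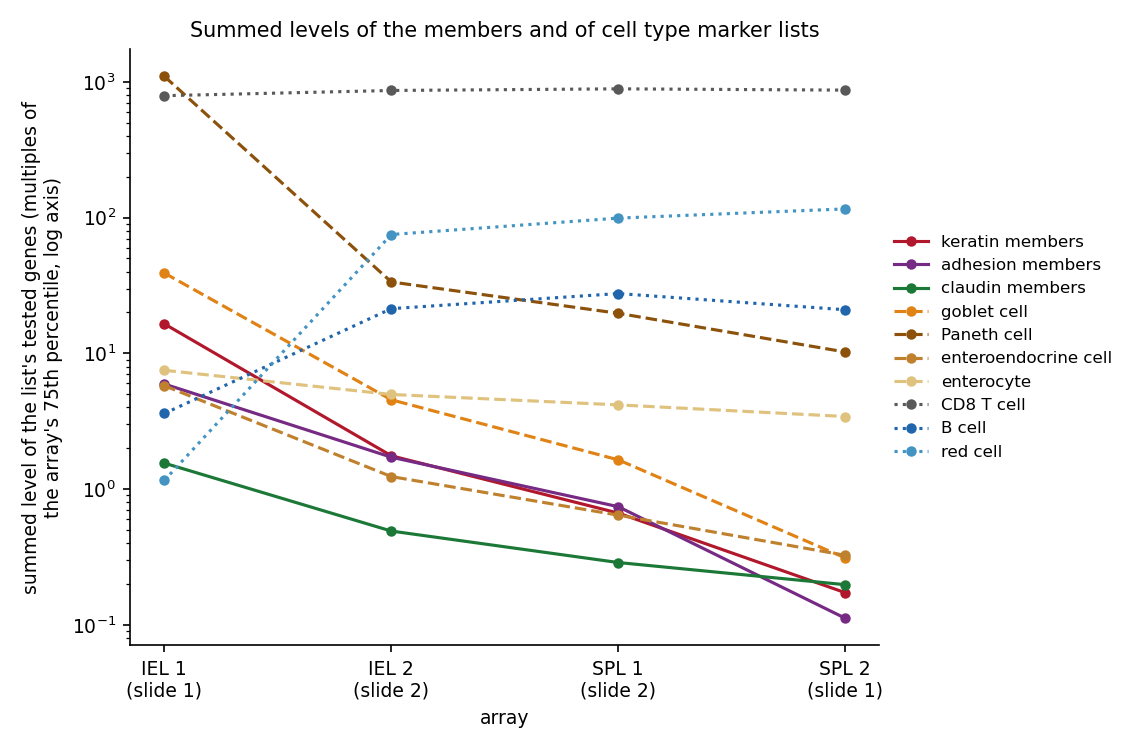
Summed level of the tested genes of the 3 member groups and of 7 cell type marker lists (y axis, multiples of the array's 75th percentile, log axis) on the 4 arrays (x axis). The members and the secretory cell lists fall from IEL replicate 1 to SPL replicate 2, the B cell and red cell lists are lowest on IEL replicate 1, and the CD8 T cell list stays between 790 and 887. The enterocyte sum includes the bright signal of *Cbr1*, which differed little between arrays.

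The genes outside the members whose 4 values, centered on their mean, were nearest to the members' median profile were *Dtx4*, *AI661453*, *Gcg*, *Acvr2a*, *Map9*, *Tspan1*, *Dgat1*, *Rai14*, *AF055908* and *Prr15*. Their Euclidean distances over 4 arrays were between 0.138 and 0.412 log2 units. *Gcg*, the glucagon precursor of enteroendocrine L cells, differed by 5.44 on slide 1 and 1.12 on slide 2. *Dtx4*, a ubiquitin ligase of the Deltex family, differed by 5.35 and 1.06. The nearest member was *Cldn7* at 0.630, at rank 32 of all tested genes, followed by *Krt19* at 0.724.

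RefSeq promoter windows of GRCm38.p6, with 250 bases before and 50 after the start of the gene, were given for 7 of the 10 members. They are shown because these genes have the same order of arrays, and 10 short motifs were searched on both strands. CAGGTG, the E-box that the repressors Snail and Zeb bind, was present in 5 of 7 members (*Krt8*, *Krt18*, *Cldn3*, *Cldn7* and *Epcam*), against 20.2% of all 32851 windows. GGGCGG was present in 4 of 7 (35.7% of windows), GGGTGGGG in 3 (9.99%) and TATAAA in 2 (13.6%). TTTATG (11.9%), TGANTCA (7.81%) and GATAAG (7.44%) were in 1 each. TCAAAG (16.0%), AACNGGTT (2.09%) and CAAAGTCCA (0.475%) were in 0 of 7. A match of letters is a description of the window, and binding was not measured. The stretches before the gene start are printed for the keratin pair and *Epcam*, with the E-box in capitals on either strand (CACCTG is CAGGTG read on the other strand).
Krt8, minus strand, chr15:102004343-102004592: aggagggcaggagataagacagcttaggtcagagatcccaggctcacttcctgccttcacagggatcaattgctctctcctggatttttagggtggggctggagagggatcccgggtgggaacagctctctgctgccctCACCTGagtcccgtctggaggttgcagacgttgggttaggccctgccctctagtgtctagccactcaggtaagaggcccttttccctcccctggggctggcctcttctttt
Krt18, plus strand, chr15:102027966-102028215: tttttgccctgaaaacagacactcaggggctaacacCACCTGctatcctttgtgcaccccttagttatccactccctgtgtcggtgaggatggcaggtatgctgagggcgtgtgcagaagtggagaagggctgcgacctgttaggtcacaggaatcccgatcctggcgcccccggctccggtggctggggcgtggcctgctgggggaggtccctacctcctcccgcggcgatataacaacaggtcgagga
Epcam, plus strand, chr17:87635729-87635978: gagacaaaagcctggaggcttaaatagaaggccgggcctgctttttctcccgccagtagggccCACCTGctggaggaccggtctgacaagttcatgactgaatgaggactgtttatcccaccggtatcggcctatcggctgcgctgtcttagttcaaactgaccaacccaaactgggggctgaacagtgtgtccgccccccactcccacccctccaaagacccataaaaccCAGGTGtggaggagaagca

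The E-box begins 111 bases before the start of *Krt8* and 214 bases before that of *Krt18*. *Epcam* has 2 of them, beginning 187 and 19 bases before its start. Of these genes the keratin pair had differences on slide 2 of 1.48 and 1.28, and *Epcam* of 0.42, on the log2 scale.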

How the data were processed

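Per the file headers, the authors' scanner files were written by Agilent Feature Extraction 10.7.3.1 (the labels name 10.7.1.1) and give an intensity per spot after subtraction of a background within the array, with no normalization between arrays. The methods name a different chip maker. A deposited set of log2 values, with equal extremes on all arrays, served as an alternative. Here, the log2 intensity minus the array's 75th percentile over non-control spots was used. Spots marked as outliers were left out and repeat spots averaged. Tests covered the 27937 of 41174 probes that exceeded background clearly on both arrays of either group. They used limma 3.58.1 under R 4.3.3 without a block and Benjamini-Hochberg adjustment over all probes at a threshold of 0.05. A gene was represented by its brightest tested probe, all members were named, and of each other list the highest and lowest gene, of which 1 is not reported here. The members and lists were chosen with earlier results of these data known. Replicate numbers come from the labels, and deviations of same-numbered arrays had a correlation of -0.025. This value cannot decide whether same-numbered samples were paired, since same-numbered arrays lay on different slides and each group had few arrays. Each sample was sorted from pooled mice, so p-values measure the spread between pools and not between mice, and precision is limited by their number. On simulated data with 200 of 27912 probes shifted by 3 log2 units, 0 were called at the spread of these arrays, and 193, with 7 false calls, at a spread 4 times smaller. The alternatives were quantile, median and other percentile scaling, normexp with an offset of 50 (also without spots more than 20 units below background), the authors' log2 values, filters on dim probes, marked spots kept, an intensity trend, the unpaired test of the methods, replicate and slide blocks, each array left out, and the mean of a gene's probes.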

Additional observations from a re-analysis of the deposited data

How the results depend on the processing

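The count of 0 member genes past the threshold held under every alternative run except without IEL replicate 2, and over the samples left out it ranged from 0 to 8. Over those same samples the count of probes past the threshold ranged from 0 to 5456 (2390 higher and 3066 lower in IELs without IEL replicate 2), and the members' median log2 difference from 1.90 to 4.85. At an unadjusted p under 0.05 limma gave 1295 higher and 308 lower probes, and the methods' t-test gave 470 and 349, none of them a member (0) and 0 after adjustment. With normexp correction the members' median was -0.040, against -0.38 over all probes, and the differences were -0.040 for *Krt20*, -0.23 for *Cldn3*, -0.078 for *Cldn7*, -0.61 for *Cldn15* and -0.49 for *Epcam*. Fitted without spots far below background, normexp gave a median of 1.91 with all 9 members positive, and the cause of the remaining shift was not tested. With the replicate number as a block the median was 3.51 and 0 probes passed, and the block changed no other call. The remaining values for single members kept their direction and side of the threshold in 139 cases, passed it in 8 cases, all without IEL replicate 2, and reversed in 5. Signal over background limits *Cdh17* and, on SPL replicate 2, *Krt20*.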
